A study of Nannochloropsis oceanica strain IMET1 with 15 samples.

Results

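Divergent gene pairs of the oleaginous microalga *Nannochloropsis oceanica* IMET1 were examined, that is, adjacent nuclear genes that lie head to head and are transcribed away from each other. A pair was taken where the first gene lies on the - strand and the second on the + strand, where the genes do not overlap, where the distance of the facing ends (the start of the second gene minus the end of the first) is at most 500 bp, and where each gene had a mean level of at least 1 over all libraries. Of 10333 nuclear genes on 30 chromosomes, 3056 genes formed 1528 such pairs. Convergent pairs (tail to tail, 1790) and same-strand pairs (2007) chosen with the same distance and level served for comparison, 5325 pairs in all. The study knocked out 2 genes tied to N6-methyladenine (6mA) in DNA by CRISPR–Cas9 and asked how the transcriptome changed. The sample titles name mutants by number only. Per the paper, lines M1 and M2 are knockouts of the putative 6mA methyltransferase NO08G00280. Lines M3 and M4 are given there as knockouts of the putative demethylase NO06G02500, a gene of the AlkB family. These 4 lines and the wild type (WT) were grown under high light and sampled on day 7, with 3 biological replicates each and 15 libraries in all. Every line was transformed with a linearized Cas9 vector that holds a bleomycin resistance gene and was selected on zeocin, which WT was not. Each line is 1 clone, so replicates of a line are repeat cultures of a single knockout event.

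In a head-to-head pair the stretch between the genes borders the starts of both, so that 1 region can hold the promoters of both genes. Such bidirectional promoters are common in compact genomes, and genes that share one are often, but not always, transcribed together. 6mA is a methyl mark on adenine that in the green alga *Chlamydomonas* lies around transcription start sites. In *N. oceanica*, by contrast, the paper reports no enrichment of the mark around these sites, where its density was lowest.

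All levels below are TMM-normalized TPM, a value per gene length, as deposited by the authors. Read counts were not analysed here, and relative depth, given by the ratio of coverage to FPKM, lay between 4.69 and 6.17 over the libraries. A gene is called changed where limma's adjusted p is under 0.05 in a fit over 9440 genes on log2(level + 1), a scale that understates the change of weakly expressed genes. The balance of a pair is the difference of the log2 levels of its first and second gene, so a called change of balance means that the genes changed by different amounts. Coordinates are given as deposited (IMET1v2 genome). The libraries carry no strand information, and where genes overlap, their reads cannot be assigned to one or the other.

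Among the pairs taken, the facing ends were farther apart in divergent pairs than in the other orientations. The limit of 500 bp and the exclusion of overlaps bound these distances. Overlapping neighbours were 24.2% of head-to-head, 13.5% of tail-to-tail and 0.183% of same-strand neighbours. Of the non-overlapping neighbours 67%, 71.5% and 58.7% in that order lay within 500 bp. The median distance was 188 bp in divergent pairs (quartiles 70.75 and 332), against 91 bp in convergent and 113 bp in same-strand pairs. Only 76 divergent pairs (4.97%) had gene models that adjoin with no base between them, against 321 convergent (17.9%) and 222 same-strand pairs (11.1%). Genes of divergent pairs had a median level of 52.1 and a median length of 2153 bp, against 48.3 and 2419.5 bp in the other 6286 nuclear genes above the level minimum. Those of convergent pairs had medians of 55.2 and 2230 bp, and those of same-strand pairs 45.6 and 2235.5 bp. Of the 3056 member genes, 193 (6.32%) overlap some other gene, against 1652 (26.3%) of the other nuclear genes, and in 186 pairs a further gene overlaps the pair. The low share among members is set in part by the rule, which leaves out neighbours that overlap each other.

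The 2 genes of a divergent pair had only loosely matched levels. Across the pairs, the log2 mean levels of the 2 genes had a Pearson correlation of 0.25 over 1528 divergent pairs, 0.14 over 1790 convergent and 0.22 over 2007 same-strand pairs. These are descriptions across pairs that share the same libraries. The levels differed by less than 2-fold in 646 divergent pairs (42.3%) and by 10-fold or more in 173 (11.3%).

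Over the 15 libraries, the genes of divergent pairs varied together more than those of convergent pairs. Pearson's r between the log2 levels of the 2 genes had a median of 0.17 in divergent pairs (quartiles -0.14 and 0.49), 0.01 in convergent and 0.08 in same-strand pairs. It was 0.7 or more in 177 divergent pairs (11.6%), in 99 convergent (5.53%) and in 294 same-strand pairs (14.6%). Of the divergent pairs, 33 (2.16%) had an r of -0.7 or less. After the mean of each group was taken off, so that only the differences between cultures of a line remained, the medians were 0.09, 0.01 and 0.06. The r values of different pairs rest on the same 15 libraries and the difference between orientations was not tested. Within the divergent pairs the median r did not follow the distance in one direction. It was 0.16 at 1 to 50 bp (323 pairs), 0.22 at 201 to 300 bp (271 pairs) and 0.14 at 401 to 500 bp (201 pairs). Divergent neighbours beyond the limit of 500 bp had medians of 0.17 at 501 to 600 bp (149 pairs), 0.16 at 601 to 1000 bp (289 pairs) and 0.10 beyond 1000 bp (230 pairs). Head-to-head neighbours that overlap had a median of 0.11 (473 pairs), with reads that cannot be assigned to one gene. For deviations from the group means the medians lay between 0.06 and 0.14 in all bins up to 1000 bp and at -0.02 beyond. Divergent neighbours up to 1000 bp apart thus had medians in the range of the close pairs, and those farther apart had the lowest. The highest median of any orientation and distance was that of same-strand pairs at 51 to 100 bp (256 pairs). It was 0.25, and 0.19 for deviations from the group means. In the other same-strand bins the median r lay between 0.01 and 0.14.

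**Figure D1:**
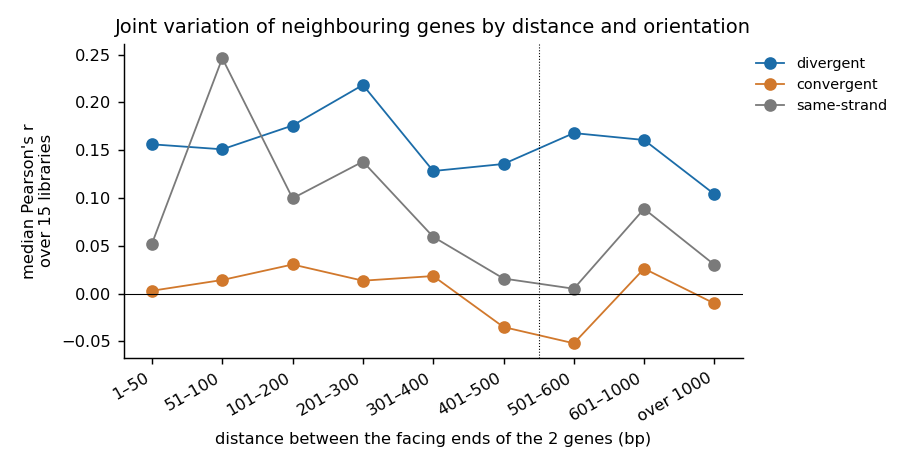
Median Pearson's r between the log2 levels of 2 neighbouring genes over 15 libraries (vertical axis) by the distance between their facing ends in bp (horizontal axis), for divergent, convergent and same-strand neighbours with both means of 1 or more. The dotted line marks the limit of 500 bp. Divergent medians lie between 0.10 and 0.22 in every bin, convergent medians between -0.05 and 0.03 and same-strand medians between 0.01 and 0.25.

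In M2 against WT, both genes of a divergent pair moved in the same direction in more pairs than in opposite directions. Of the 3056 member genes 1109 (36.3%) were called, close to the 34.7% called over all genes. They split into 565 higher and 544 lower genes, with 16.5% of all genes called higher and 18.2% called lower. With the unscaled StringTie TPM, which moved the median of all genes by 0.09 on the log2 scale, the split was 721 higher and 407 lower. Both genes were called in 229 pairs. In 85 of these both were higher and in 93 both were lower, so 178 pairs (11.6%) moved in the same direction, against 8.81% of the pairs of all 3 orientations. In 51 pairs (3.34%) the genes moved in opposite directions, against 4.64% over the 3 orientations. The same-direction share of pairs with both genes called was 77.7% among divergent, 52.2% among convergent (132 of 253) and 67.9% among same-strand pairs (159 of 234), and the difference between orientations was not tested. Leaving out single libraries changed the counts more than this share. The 178 pairs became 98 without M2 replicate 1, 108 without M2 replicate 2, 96 without WT replicate 2 and 118 without WT replicate 3. The 51 pairs became 32, 33 and 32 without M2 replicate 1, M2 replicate 2 and WT replicate 2. Over all libraries left out in turn, the share stayed between 74.7% and 77.9% in divergent and between 47.5% and 53.0% in convergent and between 65.4% and 74.3% in same-strand pairs.

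**Figure D2:**
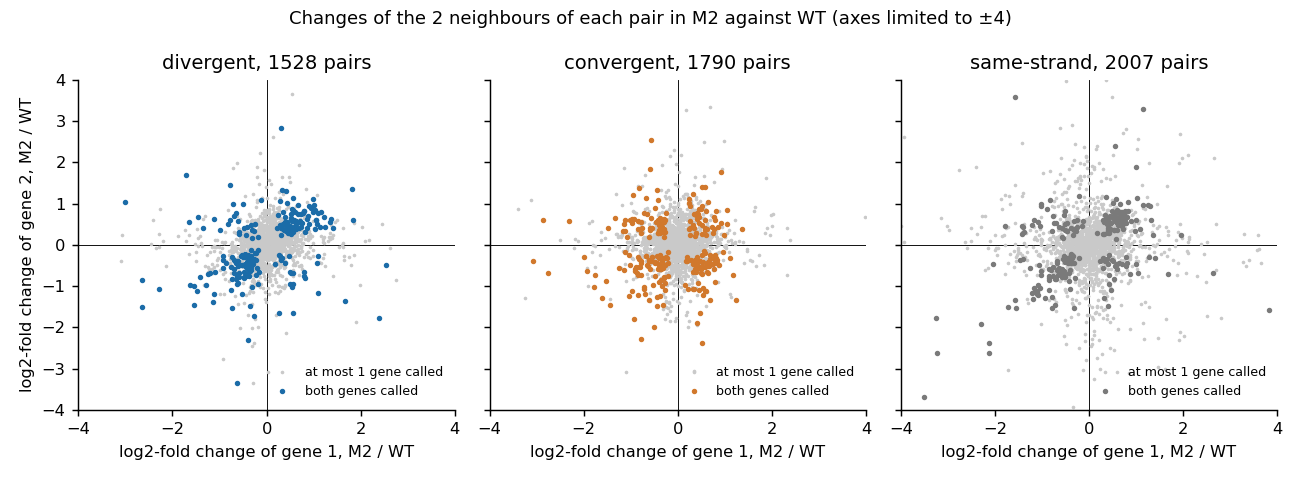
Log2-fold change in M2 against WT of the gene with the lower coordinates (horizontal axis) and of its neighbour (vertical axis), 1 point per pair, for the 3 orientations. Coloured points are pairs with both genes called; in divergent pairs 178 of 229 lie in the quadrants of equal sign, in convergent pairs 132 of 253, and 5 divergent, 4 convergent and 23 same-strand pairs lie outside the axes.

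Genes with a neighbour of each kind gave the following counts, again with no test between the kinds. They are genes of the pairs above, and a pair counts with each of its genes that is included. A total of 1303 genes had both a close head-to-head and a close tail-to-tail neighbour. Their median r was 0.19 with the head-to-head and 0.01 with the tail-to-tail neighbour, and r was higher with the head-to-head neighbour in 797 genes (61.2%). Of the 514 such genes called in M2, 166 had a head-to-head neighbour called in the same direction and 46 in the opposite one (78.3% the same). For their tail-to-tail neighbours the counts were 111 and 104 (51.6%). M4 against M3 shares no library with M2 against WT. Both were called in the same fit, with a spread pooled over all libraries, so the comparisons are not independent. In M4 against M3, the shares among 384 called genes were 76.4% (94 and 29) with head-to-head and 43.4% (49 and 64) with tail-to-tail neighbours.

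In M2, 3 of the 4 pairs with the largest joint changes fell and 1 rose. NO04G04200 and NO04G04210 (chromosome 4, 1144247 to 1145989 and 1146356 to 1148162) are both described as NAD(P)-binding Rossmann-fold proteins, a fold of many oxidoreductases. NO04G04200 stood at 32.5, 38.5 and 41.1 in M2, against 102, 69.7 and 82.1 in WT. NO04G04210 stood at 101, 89.5 and 105 in M2, against 296, 223 and 268 in WT. For both genes all M2 libraries lay below all WT libraries, and their log2-fold changes were -1.15 (SE 0.16, limma adjusted p = 0.000308) and -1.39 (SE 0.14, limma adjusted p = 3.33e-05). The balance of the pair moved by 0.24 (limma adjusted p = 0.18), and r over the 15 libraries was 0.97.

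NO17G00100, a methionine aminopeptidase 1A that trims the first methionine from new proteins, had 7.70, 7.69 and 8.72 in M2, against 19.3, 29.4 and 28.0 in WT. Its neighbour NO17G00110, which lies 430 bp away on chromosome 17, had 45.7, 44.5 and 39.997 in M2, against 115, 131 and 116 in WT. The log2-fold changes were -1.54 (SE 0.26, limma adjusted p = 0.000874) and -1.45 (SE 0.20, limma adjusted p = 0.00026). Both genes were high in M4, with 40.8, 49.5 and 41.6 for NO17G00100 and 153, 184 and 183 for NO17G00110, levels whose change against WT was not called. The r of this pair was 0.98.

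On chromosome 20, NO20G00290 fell to 9.28, 9.58 and 11.1 in M2, against 85.9, 58.3 and 61.7 in WT (log2-fold change -2.65, SE 0.30, limma adjusted p = 7.33e-05). Its neighbour NO20G00300, 76 bp away, had 6.13, 6.95 and 6.90 in M2, against 23.4, 20.8 and 18.7 in WT. The groups of NO20G00300 do not overlap, yet its call was weak, with a log2-fold change of -1.51 (SE 0.54, limma adjusted p = 0.047). It ended under 15 of 24 alternatives, among them the removal of any M1, M2 or WT replicate or of M3 replicate 1, with adjusted p from 0.0502 to 0.111. Single M3 and M4 libraries of this gene were at 3.68 and 4.20 beside others of 12.7 to 21.3.

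The pair that rose lies on chromosome 19 and holds NO19G00640 and NO19G00650, 297 bp apart. NO19G00640 had 21.7, 20.3 and 20.3 in M2, against 4.21, 6.39 and 5.13 in WT. NO19G00650 had 11.5, 11.4 and 9.28 in M2, against 3.38, 2.56 and 5.00 in WT. Their log2-fold changes were 1.81 (SE 0.32, limma adjusted p = 0.00117) and 1.36 (SE 0.22, limma adjusted p = 0.000673), and no M2 library overlapped a WT library in either gene. Most joint changes were smaller: over the 178 pairs the median absolute log2-fold change of a gene was 0.55, and in 7 pairs both genes changed more than 2-fold.

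**Figure D3:**
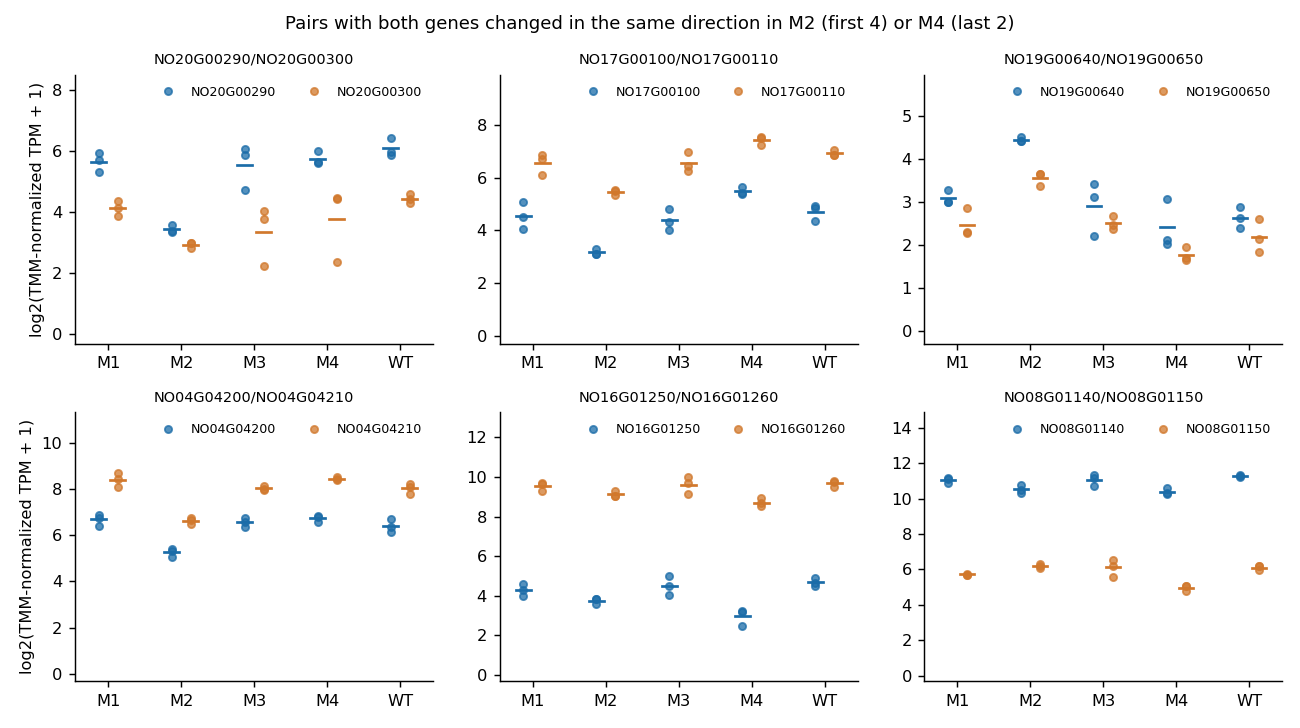
Levels of both genes of 6 divergent pairs as log2(TMM-normalized TPM + 1) in each library (points) with the mean of each group (lines), by line and WT; blue is the gene on the - strand and orange the gene on the + strand. In the first 4 panels both genes are shifted in M2 and in the last 2 both are low in M4, for example NO16G01250 at 4.50 to 8.47 in M4 and 21.4 to 29.3 in WT.

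Divergent neighbours could also move apart. NO11G01980 and NO11G01990 (chromosome 11, 640944 to 642404 and 642744 to 644129) moved in opposite directions in M2 and, the other way round, in M4. NO11G01980 had 451, 483 and 523 in M2 and 57.5, 69.9 and 67.8 in M4, against 83.5, 97.6 and 95.5 in WT. NO11G01990 had 0.673, 0.997 and 1.34 in M2 and 14.9, 17.6 and 11.2 in M4, against 3.48, 5.98 and 9.24 in WT. In M2 the log2-fold changes were 2.39 (SE 0.11, limma adjusted p = 2.03e-07) and -1.78 (SE 0.29, limma adjusted p = 0.000761), and the balance moved by 4.17 (SE 0.31, limma adjusted p = 1.09e-05). In M4 they were -0.50 (limma adjusted p = 0.0305) and 1.17 (limma adjusted p = 0.0424), which was the single opposite pair called there. NO11G01980 was also higher in M1, at 175, 211 and 175 (log2-fold change 1.01, SE 0.11, limma adjusted p = 0.00263). The M4 calls ended without M4 replicate 1 or 2 or WT replicate 1 or 2, with adjusted p between 0.0558 and 0.159 for the 2 genes. That of NO11G01980 also ended without WT replicate 3 (0.0790), and that of NO11G01990 without M1 replicate 1 or 2 or any M2 replicate (0.0512 to 0.0610).

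The other pair with the largest opposite changes in M2 lies 107 bp apart on chromosome 11. NO11G03470, which overlaps a further gene, had 2.31, 1.07 and 1.94 in M2, against 7.83, 6.93 and 9.01 in WT (log2-fold change -1.71, SE 0.26, limma adjusted p = 0.000469). NO11G03480 had 21.3, 32.2 and 11.4 in M2, against 2.13, 9.54 and 7.24 in WT (log2-fold change 1.69, SE 0.51, limma adjusted p = 0.0222). The M2 libraries of NO11G03480 lay above the WT libraries but spread from 11.4 to 32.2, and its call ended without M2 replicate 1 (0.0618), M2 replicate 2 (0.0895) or WT replicate 1 (0.0822).

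The balance changed in 381 divergent pairs in M2 (24.9%), close to the 23.9% over pairs of all 3 orientations, and in 246 without M2 replicate 2. In 273 of the 381 only 1 of the genes was called, in 51 the genes moved in opposite directions and in 37 in the same one. The count includes a pair on chromosome 4 whose NO04G01590 was listed at 0 in every library of WT, M1 and M4, so that its balance is set by the pseudocount. It had 189, 204 and 215 in M2 and 163, 266 and 295 in M3, lines of different knockouts. Its neighbour NO04G01580, 400 bp away, gave no call in any line. NO04G01580 took 2 ranges of values that did not follow the groups, 92.0 to 97.4 in 5 libraries and 45.9 to 58.3 in the other 10. No fold change is given for NO04G01590, since a value of exactly 0 may reflect an estimate that failed.

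NO02G00590 and NO02G00600 (chromosome 2, 99 bp apart) are a further case. NO02G00590 had 3.56, 2.95 and 3.30 in M2, against 27.7, 40.004 and 32.9 in WT (log2-fold change -3.00, SE 0.72, limma adjusted p = 0.00691). It was at 2.40 also in M1 replicate 2, while the other 11 libraries of the study had 27.7 to 48.5. NO02G00600 is described as SNF1 kinase homolog 10, in *Arabidopsis* the catalytic subunit of an energy-sensing kinase. It had 33.0, 31.7 and 25.7 in M2, against 18.6, 12.2 and 12.1 in WT (log2-fold change 1.04, SE 0.20, limma adjusted p = 0.00225).

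**Figure D4:**
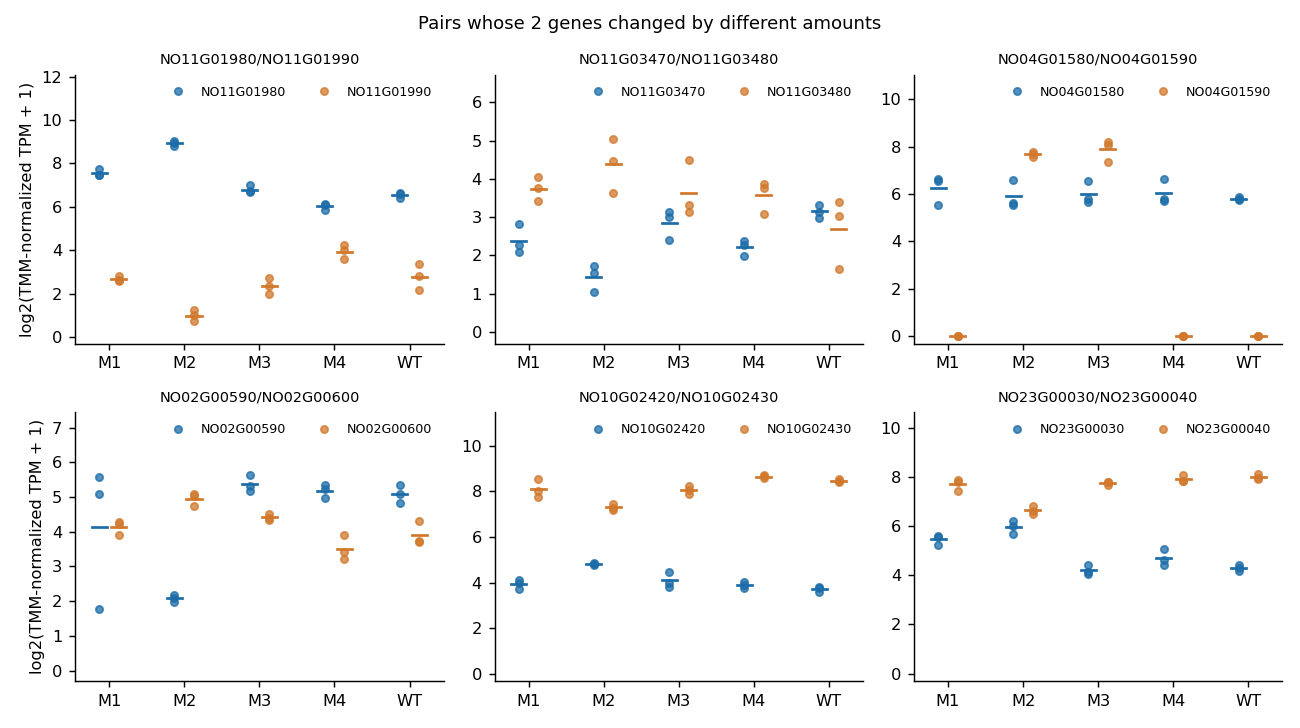
Levels of both genes of 6 divergent pairs that changed by different amounts, as log2(TMM-normalized TPM + 1) in each library (points) with the mean of each group (lines), by line and WT; blue is the gene on the - strand and orange the gene on the + strand. NO04G01590 is above 0 only in the M2 and M3 libraries, and NO11G01980 and NO11G01990 are farthest apart in M2.

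In M4 against WT, 173 member genes were called (5.66%, against 5.33% of all genes), 45 higher and 128 lower, with 1.64% of all genes higher and 3.69% lower. With the StringTie TPM the split was 56 higher and 87 lower. Both genes moved in the same direction in 12 pairs (0.785%, against 0.507% over the 3 orientations), of which 10 fell, and in opposite directions in 1 pair (0.0654%, against 0.0939%), described above. The balance changed in 16 pairs (1.05%, against 0.995%). These counts rest on single libraries. The 173 genes became 66, 23, 28, 46, 103 and 115 without M4 replicate 1, M4 replicate 2, WT replicate 1, 2 or 3 and M2 replicate 2. The 12 pairs became 3, 1, 1, 2 and 7 without M4 replicate 1, M4 replicate 2 and WT replicate 1, 2 or 3. The 16 balance calls became 0 without M4 replicate 1, WT replicate 1 or WT replicate 3 and 31 without M1 replicate 3, and lay between 2 and 9 without M4 replicate 2 or 3, WT replicate 2, M1 replicate 2, M3 replicate 2 or any M2 replicate.

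The pairs that fell together in M4 include 2 genes of protein folding. NO16G01260, described as casein lytic proteinase B3, a chaperone that untangles aggregated proteins in the chloroplast of *Arabidopsis*, had 415, 364 and 483 in M4, against 850, 898 and 711 in WT. Its neighbour NO16G01250, 23 bp away on chromosome 16, had 7.94, 4.50 and 8.47 in M4, against 29.3, 23.8 and 21.4 in WT. The log2-fold changes were -0.96 (SE 0.20, limma adjusted p = 0.022) and -1.72 (SE 0.27, limma adjusted p = 0.008). NO05G01850, described as chaperonin 10, the lid of the chaperonin cage, had 354, 336 and 424 in M4, against 662, 659 and 595 in WT. Its neighbour NO05G01860 had 281, 289 and 234 in M4, against 423, 439 and 405 in WT. In M2 only the chaperonin gene of this pair was called (226, 226 and 296, log2-fold change -1.37, limma adjusted p = 5.8e-05), and there the balance moved by -1.35 (SE 0.25, limma adjusted p = 0.003).

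NO08G01140 (1247, 1257 and 1562 in M4, against 2523, 2533 and 2391 in WT) and NO08G01150 (32.0, 26.7 and 32.1 in M4, against 71.7, 71.5 and 60.5 in WT) also fell together. NO08G01140 was lower in M2 too (1285.5, 1449 and 1751, log2-fold change -0.74, SE 0.16, limma adjusted p = 0.0041). There NO08G01150 was not called, and the balance moved by -0.81 (SE 0.13, limma adjusted p = 0.00139). NO07G03390 (49.97, 49.9 and 44.0 in M4, against 22.4, 22.5 and 17.2 in WT) and NO07G03400 (18.7, 15.3 and 16.6 in M4, against 11.8, 9.29 and 10.03 in WT) rose together. In each of these 8 genes the M4 and WT libraries did not overlap. Each of the 8 calls nevertheless ended under at least 1 of 24 alternatives. The libraries whose removal ended a call were M4 replicates 1, 2 and 3 and WT replicates 1, 2 and 3, and the highest adjusted p of a gene ranged from 0.0501 to 0.11. NO10G01760, described as protein-serine kinase 1, changed without its neighbour. It had 49.7, 42.2 and 41.6 in M4, against 13.9, 22.5 and 16.1 in WT (log2-fold change 1.32, SE 0.21, limma adjusted p = 0.00834). NO10G01770, 448 bp away, had 459, 466 and 493 in M4, against 419, 485 and 442 in WT, and was not called. The balance of this pair (1.24, SE 0.20, limma adjusted p = 0.0234) lost its call without M4 replicate 1 or 2 or WT replicate 1 or 3, with adjusted p up to 0.0923. In NO05G00990 and NO05G01000, 67 bp apart, the first gene had 134, 137 and 169 in M4, against 207, 250 and 208 in WT (log2-fold change -0.60, SE 0.10, limma adjusted p = 0.00948), and the second had 94.1, 63.9 and 97.3 in M4, against 52.0, 58.0 and 63.7 in WT, with no call. Their balance (-1.12, SE 0.19, limma adjusted p = 0.0279) lost its call without M4 replicate 1 or 3 or any WT replicate, with adjusted p from 0.05003 to 0.0946, and the call of NO05G00990 ended without M4 replicate 2 (0.0503). In M2 NO05G00990 was higher instead (318, 331 and 322, log2-fold change 0.55, SE 0.10, limma adjusted p = 0.00139), and NO05G01000 was not called.

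In M1 and M3 few member genes and balances of divergent pairs were called, which does not show that few changed. In M1, 52 member genes were called (1.70%, against 1.73% of all genes) and in M3, 30 (0.982%, against 0.985%). No divergent pair had both genes called in either line by limma, against 0.0563% and 0.0188% of the pairs of the 3 orientations. An unadjusted limma p under 0.05 was found for 512 member genes in M1 and 704 in M3, against 1638 and 1941 of all 9440 genes. At this threshold, 46 divergent pairs moved in the same direction and 7 in opposite ones in M1, and 69 and 33 in M3. These are 86.8% and 67.6% in the same direction, against 48.1% and 52.5% of convergent and 75.6% and 75.5% of same-strand pairs. The balance changed in 7 pairs in M1 (0.458%, against 0.469%) and in 1 pair in M3 (0.0654%, against 0.0188%), the pair of NO04G01590, whose balance is set by a level listed at 0. The count of genes in M1 ranged from 8 without M1 replicate 2 to 86 without M1 replicate 1, and was 24 without M1 replicate 3 and 30, 14 and 13 without WT replicate 1, 2 or 3. That in M3 was 166 without M1 replicate 3, 84 without WT replicate 1, 66 without M1 replicate 1 and at most 4 without any other library except M3 replicate 1. The balance count in M1 was 12 without M1 replicate 1 and 3 or 4 without M1 replicate 2 or 3, M2 replicate 1 or 3, M4 replicate 2 or WT replicate 1 or 3. That in M3 was 21 without M1 replicate 3, 8 without WT replicate 1 and 2 or 3 without M1 replicate 1 or 2, M3 replicate 1 or 3 or WT replicate 2.

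The largest change of balance in M1 was that of NO23G00030 and NO23G00040, 391 bp apart near the start of chromosome 23. NO23G00030 had 46.9, 46.1 and 37.0 in M1 and 49.9, 72.6 and 63.5 in M2, against 16.9, 18.7 and 20.5 in WT. NO23G00040 had 236, 225 and 171 in M1 and 88.3, 97.7 and 113 in M2, against 242, 278 and 247 in WT. NO23G00030 was higher in both lines, with log2-fold changes of 1.17 in M1 (SE 0.18, limma adjusted p = 0.0133) and 1.66 in M2 (SE 0.18, limma adjusted p = 6.12e-05), and the M1 call ended without M1 replicate 2 (0.0650). NO23G00040 was called only in M2 (log2-fold change -1.36, SE 0.12, limma adjusted p = 2.19e-05). The balance moved by 1.46 in M1 (SE 0.20, limma adjusted p = 0.0138; 0.0619 without M1 replicate 2) and by 3.02 in M2 (SE 0.20, limma adjusted p = 6.95e-06). The balance of NO06G02570 and NO06G02580, of which neither gene was called, moved by -0.95 in M1 (limma adjusted p = 0.044), and this call ended under 17 of 24 alternatives, among them the removal of any replicate of M1, M2, M4 or WT or of M3 replicate 2.

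NO11G02550 encodes a major surface protein of lipid droplets, the stores of triacylglycerol, and lies 239 bp from NO11G02560 on chromosome 11. NO11G02550 had 1217, 1119 and 879 in M1 and 525, 528 and 626 in M2, against 1846, 1854 and 1757 in WT. It was lower in both lines, with log2-fold changes of -0.78 in M1 (SE 0.12, limma adjusted p = 0.012) and -1.70 in M2 (SE 0.12, limma adjusted p = 3.22e-06). NO11G02560 stayed at 148, 151 and 139 in M1 and 144, 146 and 148 in M2, against 138, 139 and 136 in WT, with no call, so the balance moved by -0.86 in M1 (SE 0.11, limma adjusted p = 0.0138) and -1.79 in M2 (SE 0.11, limma adjusted p = 6.29e-06). NO11G02560 overlaps a further gene, and when limma was run on the M1 and WT libraries only, neither NO11G02550 (adjusted p = 0.178) nor the balance (adjusted p = 0.133) was called in M1.

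The 2 lines of a knockout differed in many pairs. In M2 against M1, 757 member genes were called (24.8%, against 25.9% of all genes), with 77 pairs in the same direction (5.04%, against 4.9%), 36 in opposite directions (2.36%, against 2.76%) and 250 changes of balance (16.4%, against 15.9%). In M4 against M3, 813 member genes were called (26.6%, against 25.6%), with 96 pairs in the same direction (6.28%, against 5.75%), 34 in opposite directions (2.23%, against 2.89%) and 244 changes of balance (16.0%, against 15.8%). The same-direction share of pairs with both genes called was 68.1% and 73.8% among divergent, 52.9% and 46.5% among convergent, and 71.0% and 78.9% among same-strand pairs in these comparisons. Without M1 replicate 1 or 2 or M2 replicate 1 or 2, the 77 pairs became 33, 39, 38 and 47, the 36 pairs 12, 12, 11 and 17 and the 250 pairs 133, 145, 145 and 148. Without M3 replicate 2 or 3 or M4 replicate 2 or 3, the 96 pairs became 60, 49, 43 and 50, the 34 pairs 13, 14, 7 and 11 and the 244 pairs 147, 116, 113 and 128. The 757 genes became 447, 499 and 493 without M1 replicate 1, M1 replicate 2 and M2 replicate 1, and the 813 genes 501 and 459 without M3 replicate 3 and M4 replicate 2. Of the 178 pairs that moved together in M2 against WT, 40 (22.5%) also moved together in M4 against M3, which is 41.7% of the 96 pairs there. The direction was the other one in 38 of these 40 (95%). This was so throughout the genome: of 1401 genes called in both comparisons 1302 (92.9%) had opposite directions, as had 31 of 31 convergent and 50 of 53 same-strand pairs that moved together in both.

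**Figure D5:**
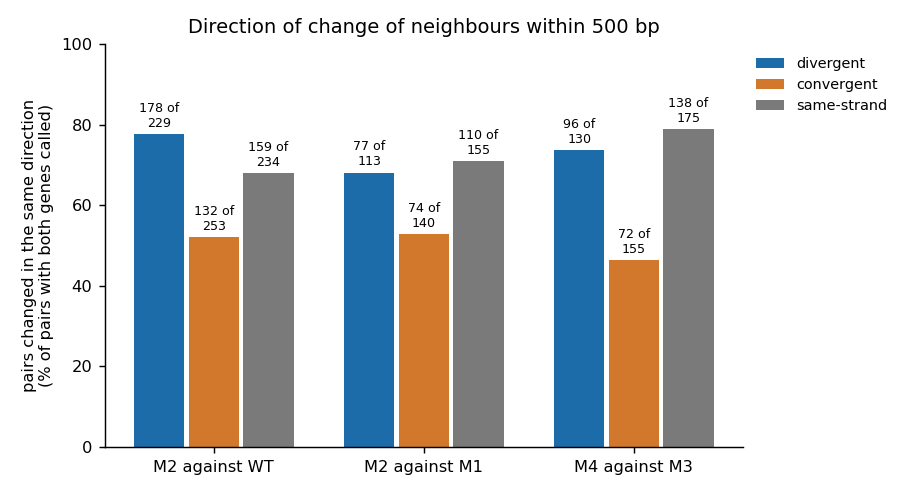
Share of pairs with both genes called that changed in the same direction (vertical axis, %) among divergent, convergent and same-strand pairs in 3 comparisons, with the counts above the bars. The divergent share is 77.7%, 68.1% and 73.8% and the convergent share 52.2%, 52.9% and 46.5%; no error is drawn, since pairs of one genome are not replicates.

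Few members carry a description. The study's list of genes that changed in these libraries describes 65 member genes, so their directions are no independent evidence. In M2, 20 of the 65 were called higher and 31 lower, while of all 222 described genes that were tested 55 (24.8%) were higher and 125 (56.3%) lower. The median log2-fold change was -0.64 over the 65 genes and -0.07 over their neighbours, against -0.00 over all genes. Of the neighbours of these 65 genes 37 were called, while 34.7% of all genes were called in M2. Of these neighbours 24 moved in the direction of the described gene and 5 in the opposite one. Among all divergent pairs with both genes called, 77.7% moved in the same direction. In 5 pairs both genes are described, so some neighbours are themselves on the study's list. Among 11 transport genes 8 were lower and 1 higher in M2, and 6 neighbours followed in the same direction. Among 7 chaperone genes 4 were lower and 1 higher, among 4 redox genes all 4 were lower, among 7 kinase and phosphatase genes 4 were higher and 1 lower, among 3 DNA repair and helicase genes 2 were higher, and among 4 lipid genes 2 were higher and 1 lower. Over all described genes, 26 of 33 transport, 8 of 13 chaperone and 8 of 10 redox genes were lower in M2, and 6 of 18 kinase and phosphatase genes were higher and 7 lower. Of all 13 described lipid genes 3 were higher and 8 lower in M2, and of 9 DNA repair and helicase genes 3 were higher and 1 lower. In M4, 3 of the 7 chaperone genes were lower (6 of 13 over all described ones, against 3.69% of all genes), and 1 transport gene and 1 kinase or phosphatase gene were higher. In M3, 2 kinase or phosphatase genes were higher. In M1, 1 transport gene and 1 redox gene were lower.

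In 5 pairs both genes are described. NO02G05340, described as plant U-box 24, in *Arabidopsis* a ligase that tags proteins with ubiquitin, had 43.4, 41.0 and 47.9 in M2, against 119, 160 and 138 in WT. Its neighbour NO02G05350, a tryptophan and tyrosine permease that carries amino acids across membranes, had 13.2, 16.3 and 15.4 in M2, against 24.5, 37.8 and 29.7 in WT. Both fell, with log2-fold changes of -1.63 (SE 0.14, limma adjusted p = 1.51e-05) and -0.97 (SE 0.18, limma adjusted p = 0.00193), and the first fell more (balance -0.66, SE 0.14, limma adjusted p = 0.00635).

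NO10G02420, described as subunit A of topoisomerase VI, which cuts both strands of DNA, and NO10G02430, a stromal ascorbate peroxidase that removes hydrogen peroxide in the chloroplast, lie 91 bp apart on chromosome 10 and moved in opposite directions. NO10G02420 had 26.9, 26.2 and 27.9 in M2, against 12.8, 11.2 and 12.5 in WT (log2-fold change 1.09, SE 0.16, limma adjusted p = 0.00045). NO10G02430 had 144, 172 and 154 in M2, against 334, 369 and 347 in WT (log2-fold change -1.16, SE 0.16, limma adjusted p = 0.000245). Over the 15 libraries their r was -0.88. The pair of NO04G04200 is given above, and in the remaining ones only 1 gene was called in M2. These were NO01G05130, a nucleotidylyl transferase (46.2, 53.6 and 44.0 in M2, against 27.9, 24.8 and 22.2 in WT), and NO23G01540, a transporter of the major facilitator superfamily that overlaps a further gene (40.1, 36.5 and 41.4 in M2, against 75.1, 91.6 and 77.0 in WT). Its partner NO23G01530 was listed at 0 in 13 of the 15 libraries. The partner of NO01G05130, NO01G05140, had 30.2, 32.7 and 24.9 in M2, against 15.1, 12.7 and 16.9 in WT. Its log2-fold change of 0.93 (SE 0.86) was close to the 0.92 of NO01G05130, but it was not called (limma adjusted p = 0.44). NO01G05140 was at 1.627 in M1 replicate 3 and at 1.392 and 1.501 in M3 replicates 2 and 3.

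Described genes with large changes in M2 had neighbours that followed in some pairs only. NO12G02010, described as DHFS-FPGS homolog D, an enzyme that adds glutamate to folates, had 34.2, 37.4 and 34.6 in M2, against 10.8, 7.48 and 9.44 in WT. Its neighbour NO12G02020, 19 bp away, had 81.0, 74.7 and 75.6 in M2, against 48.5, 46.1 and 57.2 in WT. Both rose, with log2-fold changes of 1.84 (SE 0.20, limma adjusted p = 5.45e-05) and 0.60 (SE 0.11, limma adjusted p = 0.00123). NO06G00660, described as SPX domain gene 1, which in *Arabidopsis* takes part in phosphate sensing, adjoins NO06G00650. NO06G00660 had 94.1, 105 and 109 in M2, against 278, 361 and 344 in WT (log2-fold change -1.66, SE 0.22, limma adjusted p = 0.000183), while NO06G00650 had 84.2, 89.5 and 90.03 in M2, against 61.6, 55.6 and 59.3 in WT (log2-fold change 0.57, SE 0.13, limma adjusted p = 0.00529).

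NO13G01830, an iron superoxide dismutase, which turns superoxide into hydrogen peroxide, had 44.7, 56.7 and 46.2 in M2, against 156, 173 and 163 in WT (log2-fold change -1.72, SE 0.17, limma adjusted p = 3.07e-05). Its neighbour NO13G01820 had 328, 296 and 311 in M2, against 371, 380 and 381 in WT (log2-fold change -0.28, limma adjusted p = 0.0369), a call that ended with the StringTie TPM, with quantile normalization and without M2 replicate 2 or 3 or any WT replicate (adjusted p up to 0.326). NO27G01570, described as a transcription regulator, had 102, 125 and 50.8 in M2, against 300.3, 442 and 437 in WT (log2-fold change -2.14, SE 0.44, limma adjusted p = 0.00324), and its neighbour NO27G01560, 2 bp away, was not called. NO07G00250, a protein of the thioredoxin superfamily, had 3.87, 11.3 and 9.26 in M2, against 26.7, 28.7 and 15.7 in WT (log2-fold change -1.50, SE 0.30, limma adjusted p = 0.00284), with no call for its neighbour NO07G00260.

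The pair NO14G02450 and NO14G02460 joins 2 steps of nitrate use, a high-affinity nitrate transporter and nitrate reductase, which makes nitrite from nitrate, 34 bp apart on chromosome 14. NO14G02450 had 27.8, 60.6 and 79.1 in M2, against 166, 203 and 79.2 in WT. NO14G02460 had 33.7, 30.9 and 22.8 in M2, against 44.8, 50.8 and 55.3 in WT. Both fell in M2, with log2-fold changes of -1.42 (SE 0.40, limma adjusted p = 0.0173) and -0.78 (SE 0.23, limma adjusted p = 0.0189). The highest M2 library of the transporter was just below the lowest WT library. Its call ended without M2 replicate 1 (0.0711), WT replicate 1 (0.0549) or WT replicate 2 (0.0732), and that of the reductase without M2 replicate 3 (0.0757), WT replicate 2 (0.0515) or WT replicate 3 (0.0637).

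The knocked-out demethylase gene NO06G02500 is itself a member, 271 bp from NO06G02490 on chromosome 6. Its level was 76.7, 69.8 and 69.0 in M3 and 54.5, 55.3 and 58.1 in M4, against 58.8, 55.3 and 55.7 in WT, so its transcript was not low in the lines made to lack it. Cas9 edits the sequence of a gene, so this level does not check the genotypes that the paper gives. The log2-fold change in M3 was 0.34 (SE 0.07, limma adjusted p = 0.0435), a call that ended under 17 of 24 alternatives (adjusted p up to 0.185), among them the removal of M1 replicate 2, WT replicate 2 or 3 or any replicate of M2, M3 or M4. NO06G02500 was also higher in M2, a knockout of the other gene (log2-fold change 0.23, SE 0.07, limma adjusted p = 0.022), a call that ended under 5 of 24 alternatives. M4 differed from M3 by -0.35 (SE 0.07, limma adjusted p = 0.00393), a call kept under all 23 alternatives. NO06G02490 stood at 31.7, 29.8 and 31.9 in M3 and 30.6, 25.5 and 27.3 in M4, against 33.1, 36.6 and 30.5 in WT, with no call. The methyltransferase gene NO08G00280 is in no such pair. NO08G01840, an aureochrome, a blue-light-responsive transcription factor, had 323, 309 and 353 in M4, against 388, 412 and 408 in WT (log2-fold change -0.29, SE 0.06, limma adjusted p = 0.0256), and this call ended without M4 replicate 1 or 2 or any WT replicate (adjusted p up to 0.111). Its neighbour NO08G01850 had 191, 195 and 207 in M4, against 244, 225 and 217 in WT, and was called only in M2 (198, 162 and 206, log2-fold change -0.28, limma adjusted p = 0.025), where the call ended with the StringTie TPM, with quantile normalization and without M2 replicate 2 or WT replicate 1 or 2 (adjusted p up to 0.34).

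In each of the 3 pairs whose weaker gene had the highest mean level, the genes changed by different amounts in M2. In NO17G00730 and NO17G00740, 103 bp apart, the first gene had 789, 712 and 707 in M2, against 581, 434 and 498 in WT. The second had 295, 289 and 301 in M2, against 470, 633 and 615 in WT, and the balance moved by 1.4955 (SE 0.27, limma adjusted p = 0.00257). In NO12G02400, which overlaps a further gene, and NO12G02410, the first gene had 1408, 1303 and 1334 in M2 and 673, 582 and 770 in M4, against 1085, 987 and 844 in WT. The second had 1103, 1025 and 1142 in M2 and 1016, 916 and 1038 in M4, against 1226, 1025 and 1028 in WT, and was called in neither line. In NO12G02630 and NO12G02640 only the second was called in M2, at 1122, 503 and 522, against 1488, 1673 and 1336 in WT (log2-fold change -1.16, SE 0.25, limma adjusted p = 0.00407). The balances of these pairs moved by 0.48 (limma adjusted p = 0.00142) and 0.79 (limma adjusted p = 0.0497). The call of NO12G02630 and NO12G02640 ended when any library other than M2 replicate 1 was left out (adjusted p from 0.0595 to 0.183). Of the pairs whose gene models adjoin, the first by identifier are NO01G03140 with NO01G03150, NO01G04380 with NO01G04390 and NO02G00780 with NO02G00790, and none of these 6 genes was called in any line against WT.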

How the data were processed

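Levels come from the matrix of 15 RNA-seq libraries (high light, NEBNext Ultra RNA kit). Per the study's methods, reads were aligned with STAR in nf-core/rnaseq and the matrix was made with Trinity by TMM normalization. The authors deposited this signal as TMM-normalized TPM, and in each library it equals the StringTie TPM of the deposited tables times 1 factor (0.947 to 1.05). The deposited FPKM and coverage served only for relative depth, and the deposited TPM as an alternative scale. Read counts were not analysed here, so counting errors are not given.

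Neighbours were taken by chromosome and start in the deposited coordinates. Genes with a mean of at least 1 were tested with limma 3.58.1 (R 4.3.3) on log2(level + 1), with 1 mean per group, a variance trend and Benjamini-Hochberg adjustment. Balances of the 5325 pairs were tested likewise, with the mean level of the weaker gene as the covariate of the trend. The edgeR test of the paper's methods needs counts. Counts, correlations and medians were made with pandas 2.3.3, scipy 1.17.1 and numpy 2.4.6 under Python 3.11.15, and the plots with matplotlib 3.10.9. The fits were tested on simulated data.

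Named pairs are, per line against WT, the 4 with the largest joint changes, the 2 with the largest opposite changes and the 3 with the largest changes of balance. Also named are pairs with 2 described genes, the 8 described genes that changed most in M2, genes named in the paper, the 3 pairs with the highest mean level of the weaker gene and the 3 closest pairs. Members and lists were chosen with earlier results of these data known. Alternatives were other pseudocounts, level and distance limits, normalizations, a replicate block, other settings and thresholds of limma, and leaving out each library. Nuclear sequences between the genes were not analysed here.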

Additional observations from a re-analysis of the deposited data

Results flagged for a closer look

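The 2 lines of each knockout differed in 757 genes of divergent pairs between M2 and M1 and in 813 between M4 and M3 (limma, adjusted p under 0.05). These are 24.8% and 26.6% of the member genes, close to the 25.9% and 25.6% of all genes. No cause of these differences was tested. Each knockout line is 1 clone, so differences between lines of a genotype and differences between clones cannot be told apart.

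The following named genes were called between lines of the same knockout with a difference of more than 1 on the log2 scale, and were also called against WT in at least 1 of these lines. M2 was below M1 by a log2 difference of -1.12 for NO02G05340, -1.43 for NO04G04200, -1.76 for NO04G04210, -1.14 for NO06G00660, -1.13 for NO07G00250 and -1.69 for NO11G01990. It was also below M1 by -1.18 for NO13G01830, -1.38 for NO17G00100, -1.10 for NO17G00110, -2.21 for NO20G00290, -1.06 for NO23G00040 and -2.06 for NO27G01570. M2 was above M1 by 1.38 for NO11G01980, 1.07 for NO12G02010, 1.36 for NO19G00640 and 1.08 for NO19G00650. In the pairs NO04G04200 with NO04G04210, NO17G00100 with NO17G00110 and NO19G00640 with NO19G00650 both genes differed between M2 and M1 in the same direction, and in NO11G01980 with NO11G01990 in opposite ones.

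M4 was above M3 by a log2 difference of 1.00 for NO07G03390, 1.72 for NO10G01760 and 1.60 for NO11G01990. It was below M3 by -1.15 for NO08G01150, -1.56 for NO16G01250 and -1.06 for NO17G00730. M4 was also above M3 by 1.05 for NO02G05350 and 1.10 for NO17G00100, which were called in neither line against WT. NO04G01590 had a mean level of 203 in M2 and was listed at 0 in M1, and it had a mean level of 242 in M3 and was listed at 0 in M4.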

How the results depend on the processing

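Of 163 calls of named genes and balances, 101 were kept under every alternative that was run, 62 ended under at least 1, and none changed direction. Where a call needed more than 2-fold and an adjusted p of at most 0.001, member genes called against WT were 0 for M1, 83 for M2, 1 for M3 and 0 for M4, with 30 in M2 against M1 and 3 in M4 against M3. Pairs in the same direction were then 3, 0, 1 and 0 and pairs in opposite directions 3, 0, 0 and 0 in M2, in M4, in M2 against M1 and in M4 against M3, and changes of balance 0 in M1, 37 in M2, 0 in M4, 13 in M2 against M1 and 1 in M4 against M3. With a distance of 200 bp or less the genes were 24, 553, 18 and 90 in M1 to M4, 383 in M2 against M1 and 409 in M4 against M3. Pairs in the same direction were then 83, 6, 34 and 52, pairs in opposite directions 24, 0, 16 and 15, and changes of balance 1, 178, 0 and 7 in M1 to M4, 109 in M2 against M1 and 95 in M4 against M3, since fewer pairs enter. In fits of a line and WT alone, genes were 5 in M1, 2 in M3 and 41 in M4, same-direction pairs 3 and opposite pairs 0 in M4, and changes of balance 3, 2 and 3 in M1, M3 and M4. Such fits give no comparison of 2 clones. The StringTie TPM gave 1 same-direction pair in M1, no filter on low values 1 opposite pair in M1, and a mean of 5 or more and a pseudocount of 0.1 gave 0 opposite pairs in M4. Without the variance trend, genes were 14 in M3 and changes of balance 5 in M4, and quantile normalization gave 12 genes in M3. The cause of these shifts was not tested.

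Samples with the same replicate number showed little joint deviation (r from -0.07 to 0.09). The labels do not say whether the numbers pair samples, and this r cannot settle it. A replicate block gave 25 genes in M1, 1 in M3, 109 in M4 and 2 changes of balance in M4. The median r of divergent pairs was 0.0897 for deviations from group means and 0.18 without genes listed at 0 beside a level of 20 or more, a choice made after seeing the data, which gave 0.14 in same-strand pairs. Without pairs overlapped by a further gene it was 0.13 in same-strand pairs.

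Leaving out 1 library at a time, member genes ranged from 8 to 86 for M1, 834 to 1200 for M2, 1 to 166 for M3, 23 to 222 for M4, 447 to 898 in M2 against M1 and 459 to 890 in M4 against M3. Same-direction pairs ranged from 0 to 2, 96 to 199, 0 to 3, 1 to 15, 33 to 115 and 43 to 112 in that order. Opposite pairs ranged from 0 to 1, 32 to 67, 0 to 2, 0 to 2, 11 to 45 and 7 to 40. Changes of balance ranged from 3 to 12, 246 to 404, 1 to 21, 0 to 31, 133 to 283 and 113 to 290. The median r ranged from 0.166 to 0.176 in divergent, -0.00683 to 0.0159 in convergent and 0.0721 to 0.0984 in same-strand pairs. Depth in counts is unknown, so the counting error of weakly expressed genes could not be given.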
